A study of Homo sapiens with 6 samples.

Results

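Integrins are receptors of the cell surface that hold epithelial cells to the matrix. The 10 subunit genes ITGA2, ITGA3, ITGA5, ITGA6, ITGAV, ITGB1, ITGB4, ITGB5, ITGB6 and ITGB8, which are used in epithelia, were taken by their gene symbol from a transcript count table of HCT116 cells. They are 10 of 40173 genes in that table, and their 102 transcripts are 102 of 151453 transcripts that carry a gene. HCT116 is a human colorectal cancer cell line. The MOCK cells had received a MOCK control lentivirus and carry the genotype label wild type, and the CYGB cells had received a virus with the coding region of cytoglobin (CYGB), a globin of the cytoplasm, fused to FLAG. Both were selected with puromycin into stable lines, so a group stands for a selected population and its libraries were not labelled as separate transductions. Each group had 3 libraries of RNA, and the p-values therefore measure the spread between these libraries only, which may be technical.

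An integrin is made of an alpha and a beta chain. ITGB1 pairs with ITGA2, a collagen receptor chain, with ITGA3 and ITGA6, which bind laminin, and with ITGA5, which binds fibronectin. ITGB4 pairs with ITGA6 in the hemidesmosome, the plaque that fixes an epithelial cell to its basement membrane. ITGAV pairs with ITGB5, ITGB6 or ITGB8, among other beta chains, and the pairs with ITGB6 and ITGB8 activate latent TGF-beta.

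ITGA3 and ITGA6 are each made with an A or a B cytoplasmic tail, set by whether a cassette exon is spliced in. The ends of the 4 coding sequences are shown because the counts of ITGA6 moved between these forms from library to library. The last coding bases shared by both forms are in lower case, and the bases that code for a single tail are in capitals. The capitals of the B forms also lie in the A transcripts, after the end of their coding part, so they do not mark a B transcript by themselves. All are from GENCODE 29 on GRCh38, 5′ to 3′ on the plus strand.
ITGA6-201, tail A: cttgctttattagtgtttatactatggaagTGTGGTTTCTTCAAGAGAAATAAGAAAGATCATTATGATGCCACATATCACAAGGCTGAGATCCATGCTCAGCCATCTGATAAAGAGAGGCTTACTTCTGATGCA
ITGA6-202, tail B: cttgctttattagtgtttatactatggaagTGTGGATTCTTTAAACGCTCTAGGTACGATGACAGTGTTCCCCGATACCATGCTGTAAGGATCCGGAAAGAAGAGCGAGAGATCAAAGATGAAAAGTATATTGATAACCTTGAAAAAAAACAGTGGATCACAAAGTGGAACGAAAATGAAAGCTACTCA
ITGA3-202, tail A: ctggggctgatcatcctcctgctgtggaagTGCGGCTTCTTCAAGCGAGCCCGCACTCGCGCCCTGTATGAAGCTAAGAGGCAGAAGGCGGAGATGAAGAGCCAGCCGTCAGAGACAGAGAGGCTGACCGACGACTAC
ITGA3-201, tail B: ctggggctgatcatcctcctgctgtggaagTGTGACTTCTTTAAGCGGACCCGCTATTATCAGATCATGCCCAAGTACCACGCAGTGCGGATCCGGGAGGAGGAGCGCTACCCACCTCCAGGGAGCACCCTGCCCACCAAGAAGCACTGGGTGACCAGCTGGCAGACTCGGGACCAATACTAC
The capitals of the A forms lie at chr2:172501772-172501876 for ITGA6 (105 coding bases) and chr17:50088225-50088332 for ITGA3 (108 coding bases). Those of the B forms lie at chr2:172504091-172504249 (159 coding bases) and chr17:50089110-50089262 (153 coding bases), further along each gene.

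The libraries held from 47193496 to 53531777 counts on transcripts with a gene. CYGB itself went from 10, 28 and 34 counts in MOCK to 34935, 27681 and 32333 in CYGB, as the labels have it. All 7 epithelial markers were detected and their summed level was 4127 to 4602 CPM (counts scaled to library size) in MOCK and 4200 to 4490 CPM in CYGB. KRT8 and KRT19 made up most of this sum, and VIL1, a brush border gene, stayed at or below 0.787 CPM. EPCAM was at 159 CPM in CYGB replicate 3 and at 307 to 341 CPM in the other libraries. Of 7 markers of other cell types, COL1A1 had 44.3 to 53.7 CPM and the other 6 at most 1.88 CPM.

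The order of the subunits was set by their level per length, in TPM (counts scaled to transcript length and library size). ITGB1, the common beta chain, was at 631 ± 57.6 TPM (SD, n = 6 libraries), ITGB4 at 335 ± 27.6 TPM and ITGA3 at 255 ± 19.6 TPM. ITGB5 at 107 ± 6.76 TPM and ITGA5 at 106 ± 13.7 TPM could not be ordered, since their ranges over the libraries overlapped. ITGA2 (60.4 ± 21.1 TPM), ITGAV (47.7 ± 4.47 TPM) and ITGA6 (34.0 ± 9.68 TPM) followed, and each overlapped its neighbour. ITGB8 at 2.51 ± 0.729 TPM and ITGB6 at 0.117 ± 0.0914 TPM were far below. Which chains are paired cannot be read from RNA levels. The summed alpha chains were at 530 ± 21.4 TPM in MOCK and 476 ± 55.0 TPM in CYGB (SD, n = 3 each), and the summed beta chains at 1074 ± 29.5 and 1079 ± 87.8 TPM. These sums differed by less than the spread of the CYGB libraries.

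**Figure D1:**
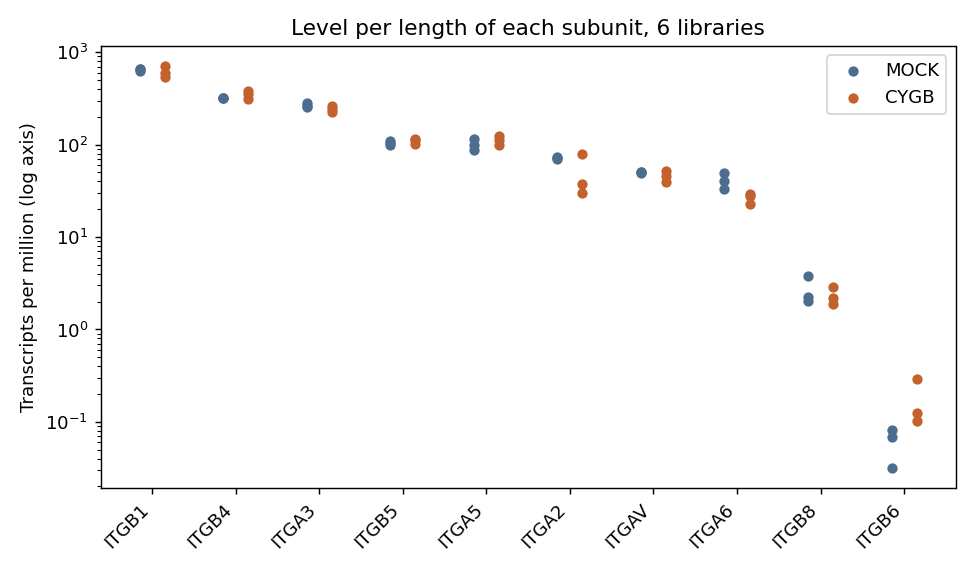
Level of each subunit in TPM on a log axis, with a point for each of the 3 MOCK and 3 CYGB libraries and the genes ordered by their mean. ITGB1 is highest at 631 TPM and ITGB6 lowest at 0.117 TPM.

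Between CYGB and MOCK, ITGA6 was the subunit that passed the threshold of the study's methods, a p-value of at most 0.01 with a ratio of at least 2 or at most 0.5. All 10 genes passed the expression filter, and 1 of them passed this threshold, against 0.565% of the 19987 genes tested (0.285% in the lower direction). By edgeR's quasi-likelihood test 0 of the 10 reached an adjusted p under 0.05, where 0.0550% of all genes did, and their adjusted p-values ran from 0.963 to 0.999. An unadjusted p under 0.05 was found in 1, against 4.54% of all genes. DESeq2 gave 1 at an adjusted p under 0.05, against 0.543% of all genes, and 2 at an unadjusted p under 0.05, against 6.16%. DESeq2 also put 1 past the threshold of the methods, where 1.32% of all genes were. The fold changes went up in 4 members and down in 6, with a median log2 value of -0.07, beside -0.01 over all genes tested. In 3 of the 10 (ITGA6, ITGAV and ITGB6) the groups did not overlap, as in 11.0% of all genes tested, but ITGB6 passed the filter through the CYGB libraries alone and so had to differ.

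**Figure D2:**
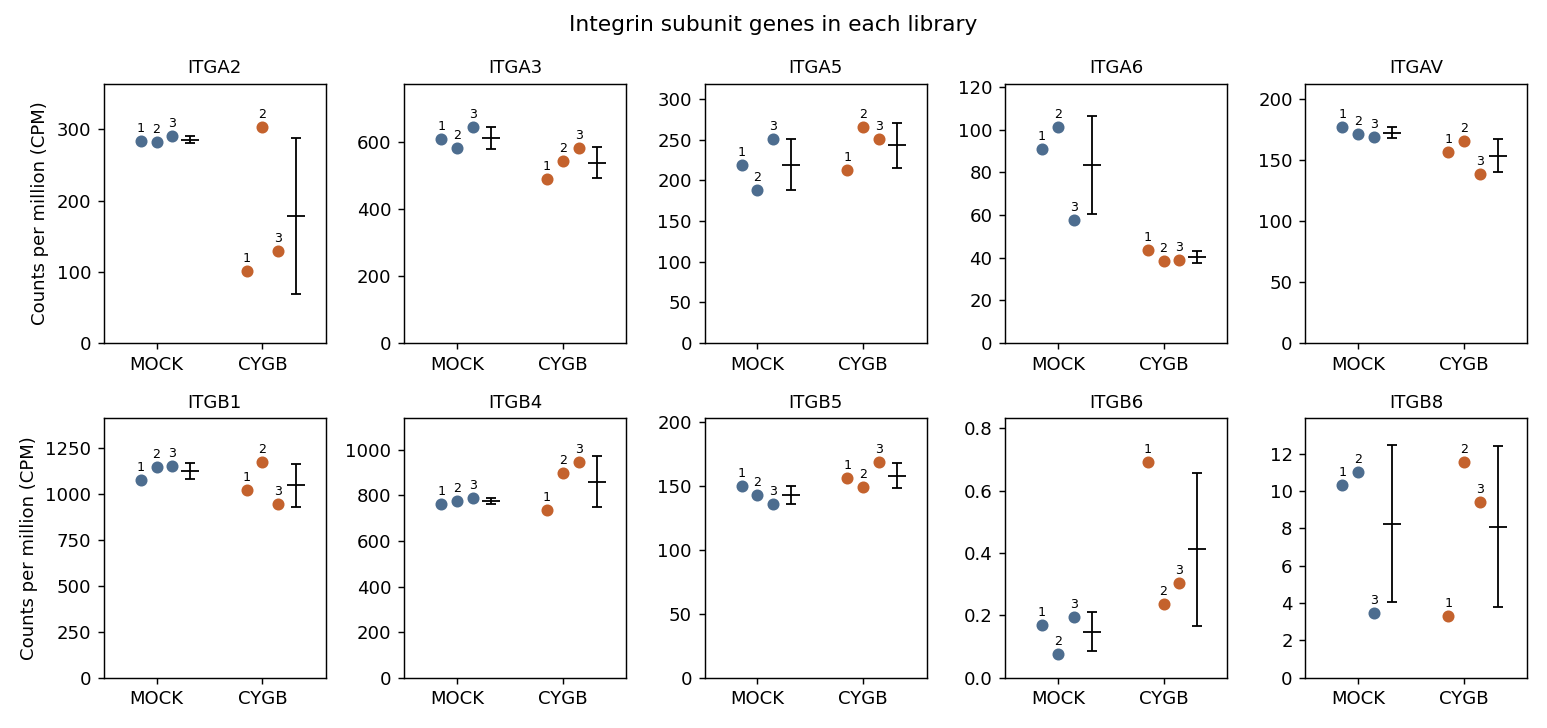
CPM of each subunit gene in the 3 MOCK and 3 CYGB libraries, numbered by replicate, with the mean and SD at the right of each group and axes that start at 0. The groups do not overlap in ITGA6, ITGAV and ITGB6, and ITGA2 is low in CYGB replicates 1 and 3 alone.

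ITGA6 (ENSG00000091409, chr2:172427354-172506282, plus strand) had 4300, 5353 and 2963 counts in MOCK and 2193, 1958 and 2041 in CYGB. Every CYGB library lay below every MOCK library, and MOCK replicate 3 stood closest to them. MOCK cells held 83.3 ± 22.9 CPM (SD, n = 3), while CYGB cells held 40.3 ± 2.73 CPM (SD, n = 3). In bulk RNA, fewer cells that express a gene and less RNA per cell cannot be told apart. This gave a log2 value of -1.05 with a standard error of 0.22 (adjusted p = 0.963 by edgeR's quasi-likelihood test), and DESeq2 gave an adjusted p of 0.0145, the lowest of 14 alternatives that ran up to 1.00. ITGA6 was no longer past the threshold without MOCK replicate 1 (log2 -0.98), MOCK replicate 2 (log2 -0.88), CYGB replicate 2 (log2 -1.02) or CYGB replicate 3 (log2 -1.02), nor by its most abundant transcript alone (log2 -1.51, standard error 0.58). The antisense gene AC078883.1 overlaps ITGA6 and had 321 to 546 counts in MOCK and 269 to 355 in CYGB, and the strand setting of the counting was not given in the sources used here, so reads of the pair cannot be told apart.

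The ratio of ITGB4 to ITGA6, the hemidesmosome pair, was 8.01 ± 1.67 in MOCK and 13.1 ± 0.979 in CYGB (TPM over TPM, SD, n = 3 each). Single MOCK libraries gave 7.85, 6.42 and 9.74 and single CYGB libraries 13.72, 12.01 and 13.70, and these ranges did not overlap. The ratio holds the ITGA6 values, whose groups already did not overlap, so it is not a separate result. The ratio of ITGB1 to ITGA6 was 15.3, 13.4 and 19.9 in MOCK and 25.98, 23.96 and 19.49 in CYGB, and there the groups overlapped. ITGB4 (ENSG00000132470, chr17:75721328-75757818, plus strand) had 35906, 40992 and 40514 counts in MOCK and 37138, 45537 and 49798 in CYGB. These groups overlapped, and the log2 fold change was 0.15. Its main transcript ITGB4-206 held 49.98 to 65.1% of the gene's counts and ITGB4-201 23.0 to 28.2%. GALK1 overlaps ITGB4 on the other strand with 1933 to 2443 counts.

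Within ITGA6, the counts moved between the tail forms from library to library. The A form ITGA6-201 had 3750, 4605 and 991 counts in MOCK and 1088, 1342 and 898 in CYGB (log2 fold change -1.49, standard error 0.57). MOCK replicate 3 was as low as the CYGB libraries, so the groups overlapped. The B form ITGA6-202 had 417, 523 and 1787 counts in MOCK and 998, 378 and 905 in CYGB, with a log2 fold change of -0.27. Over all transcripts with a tail, the B form made up 10.0% (95% Wilson interval 9.13 to 10.95), 10.2% (9.40 to 11.1) and 64.3% (62.5 to 66.1) of A and B counts in the MOCK libraries. In the CYGB libraries it made up 47.8% (45.7 to 49.99), 23.2% (21.3 to 25.3) and 50.1% (47.8 to 52.4), and the intervals cover counting error only. The share was 28.2 ± 31.3% (SD, n = 3) in MOCK and 40.4 ± 14.9% (SD, n = 3) in CYGB, a difference of 12.2 points. A two-sided exact permutation test gave p = 0.8, and 3 against 3 libraries cannot give a p below 0.1. Of the 150-base windows of ITGA6-201 and ITGA6-202, 4.28% and 1.01% occur in no other ITGA6 transcript. A window held by several transcripts with the same tail is not among them, so these values do not give how well the tails are told apart. How reads were divided among isoforms is not given in the sources used here.

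**Figure D3:**
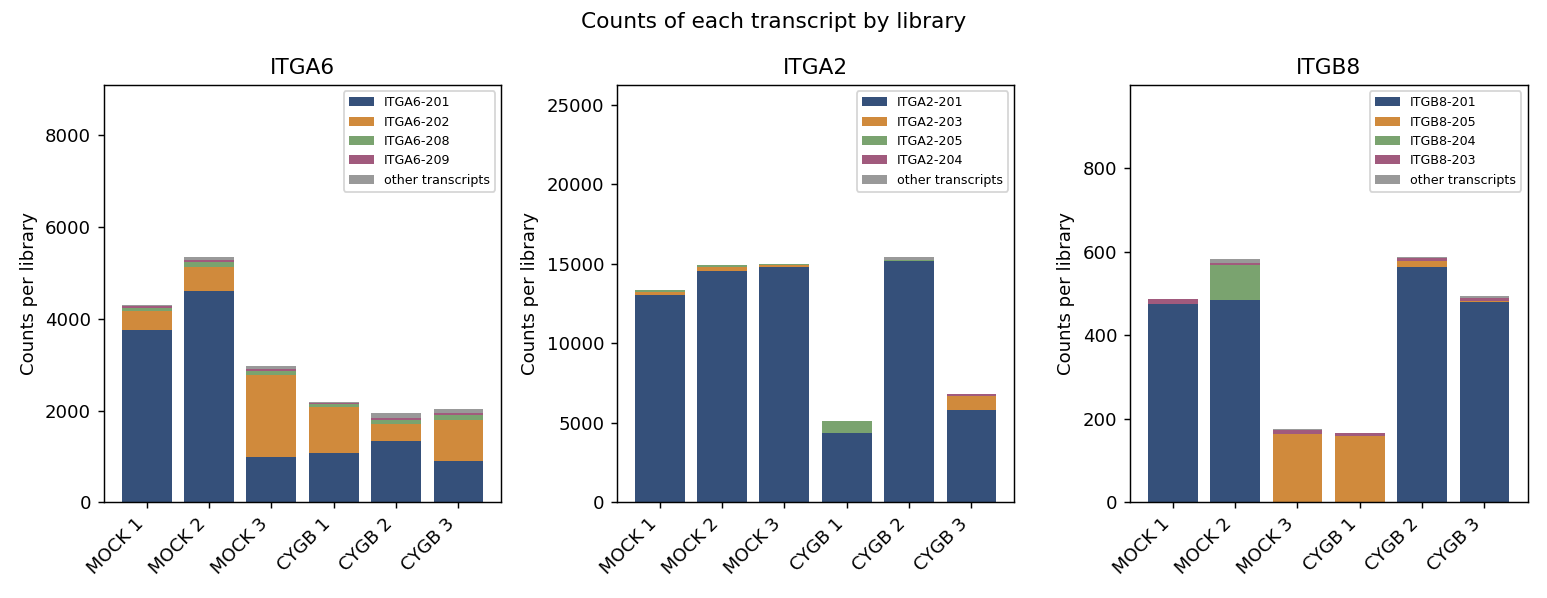
Stacked counts of the 4 most abundant transcripts of ITGA6, ITGA2 and ITGB8 and of the other transcripts in each of the 6 libraries. ITGA6-201 falls to 991 counts in MOCK replicate 3, ITGA2-201 to 4358 and 5793 in CYGB replicates 1 and 3, and ITGB8-201 is at 0 in MOCK replicate 3 and CYGB replicate 1.

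ITGA3 (ENSG00000005884, chr17:50055968-50090481, plus strand), the partner of ITGB1 in the main laminin receptor of many epithelia, had 28821, 30756 and 33289 counts in MOCK and 24781, 27608 and 30609 in CYGB. The ranges overlapped, at 613 ± 32.4 and 539 ± 46.3 CPM (SD, n = 3 each), and the log2 fold change was -0.19 (standard error 0.09). The coding A form ITGA3-202 held 78.0 to 93.2% of its counts, and the A sum used for the shares also takes in ITGA3-208 and ITGA3-204, which are typed as retained introns. The B form ITGA3-201 had 0 counts in 4 libraries, where a floor of 3 counts is at most 0.0124% of the A and B counts, and 50 and 1617 counts in CYGB replicates 2 and 3. Its share in CYGB replicate 3 was 5.45% (95% Wilson interval 5.20 to 5.72), and the exact permutation p between groups was 0.4. No 150-base window of ITGA3-202 and 4.15% of those of ITGA3-201 are unique to that transcript within the gene. A window held by several A transcripts counts as not unique, so these values do not give how well A and B are told apart. The shares also depend on how reads were divided among transcripts, which is unknown.

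ITGA2 (ENSG00000164171, chr5:52989326-53094779, plus strand) had 13375, 14918 and 14998 counts in MOCK and 5122, 15429 and 6804 in CYGB. CYGB replicates 1 and 3 lay far below all other libraries and CYGB replicate 2 above all of them. MOCK cells held 286 ± 5.00 CPM (SD, n = 3) and CYGB cells 178 ± 110 CPM (SD, n = 3). The log2 fold change of -0.68 (standard error 0.40) did not pass the threshold. The coefficient of variation was 1.75% in MOCK and 61.5% in CYGB, a value reached in CYGB by 4.95% of the genes whose mean was 10 CPM or more. Without CYGB replicate 2, the log2 fold change was -1.31 and passed it (adjusted p = 0.122 by edgeR's quasi-likelihood test, with 0.122 to 1.00 over the 14 alternatives). Transcripts typed as targets of nonsense-mediated decay held 14.9% of ITGA2 counts in CYGB replicates 1 and 3, and 1.53 to 2.43% in the other 4 libraries. The transcripts differed: ITGA2-205 had 755 counts in CYGB replicate 1 and 0 in CYGB replicate 3, and ITGA2-203 had 0 and 863. Of their 150-base windows, 4.32% and 4.46% are unique within the gene, so these shares rest on the unknown division of reads.

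**Figure D4:**
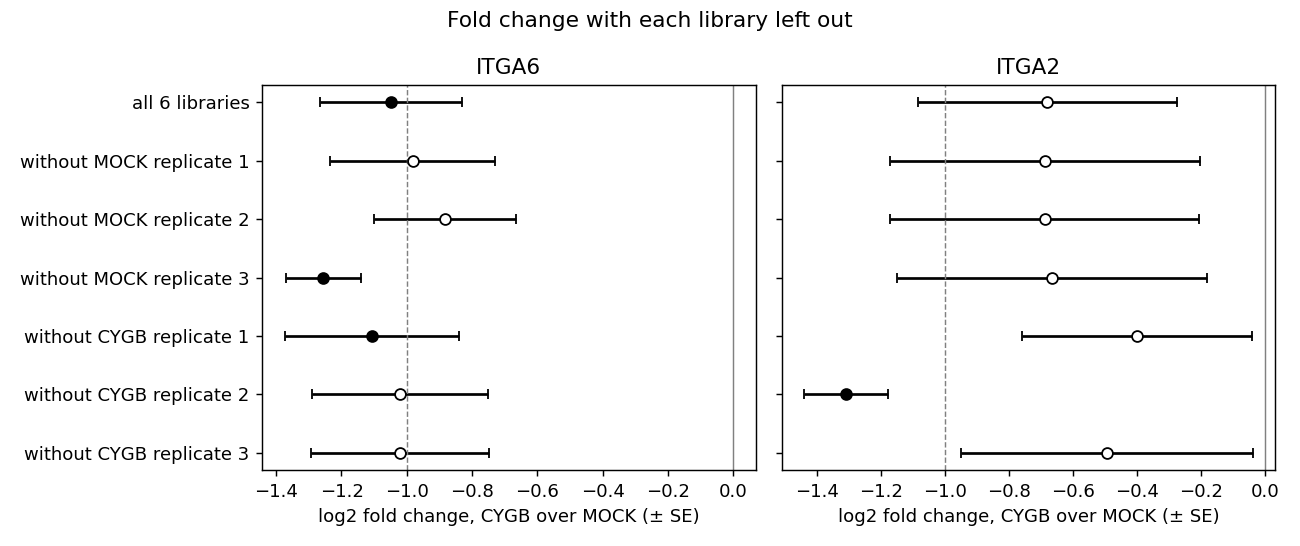
Log2 fold change of ITGA6 and ITGA2, CYGB over MOCK, with bars of 1 standard error, over all 6 libraries and with each left out, where filled points pass the threshold of the methods and the dashed line is a ratio of 0.5. ITGA6 stays between -1.26 and -0.88, and ITGA2 moves to -1.31 without CYGB replicate 2.

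ITGAV (ENSG00000138448, chr2:186590065-186680901, plus strand) had 8355, 9025 and 8662 counts in MOCK and 7902, 8408 and 7262 in CYGB. Scaled to library size, all CYGB libraries lay below all MOCK libraries, at 153 ± 13.8 against 172 ± 4.41 CPM (SD, n = 3 each). This log2 fold change of -0.17 (standard error 0.09) did not pass the threshold, and the most abundant transcript alone gave 0.047. That transcript, ITGAV-202 (3036 coding bases), had 5492, 6568 and 6919 counts in MOCK and 6706, 6945 and 6179 in CYGB. ITGAV-201 (3144 coding bases) had 2844, 2421 and 1698 counts in MOCK and 1179, 1413 and 1063 in CYGB, with no overlap between groups (log2 fold change -0.94, standard error 0.27). Of the 150-base windows of ITGAV-201 and ITGAV-202, 0.276% and 2.21% are unique within the gene, so the counts of these transcripts rest on the unknown division of reads.

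ITGB5, ITGB6 and ITGB8, beta partners of ITGAV, did not pass the threshold. ITGB5 (ENSG00000082781, chr3:124761948-124901418, minus strand) had 7104, 7541 and 6995 counts in MOCK and 7885, 7592 and 8883 in CYGB, with a log2 fold change of 0.15. Of its counts, 14.4 to 28.8% lay in ITGB5-202, a transcript typed as a retained intron. ITGB6 (ENSG00000115221, chr2:160099666-160200313, minus strand) had 8, 4 and 10 counts in MOCK and 35, 12 and 16 in CYGB, a log2 fold change of 1.48 (standard error 0.61). It was above the filter level of 0.196 CPM in the CYGB libraries alone, so it could enter the test only by being higher there. ITGB8 (ENSG00000105855, chr7:20330702-20415754, plus strand) had 487, 582 and 177 counts in MOCK and 167, 588 and 494 in CYGB, and its log2 fold change of -0.03 (standard error 0.60) changed sign with the library left out. Its main transcript ITGB8-201 was at 0 counts in MOCK replicate 3 and CYGB replicate 1, where ITGB8-205 had 163 and 160 counts.

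ITGB1 (ENSG00000150093, chr10:32900319-33005792, minus strand) had 50929, 60516 and 59372 counts in MOCK and 51633, 59785 and 49765 in CYGB, with a log2 fold change of -0.10. ITGA5 (ENSG00000161638, chr12:54395261-54419460, minus strand) had 10361, 9934 and 12890 counts in MOCK and 10724, 13509 and 13205 in CYGB, with a log2 fold change of 0.15. Both genes overlapped between groups.

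**Figure D5:**
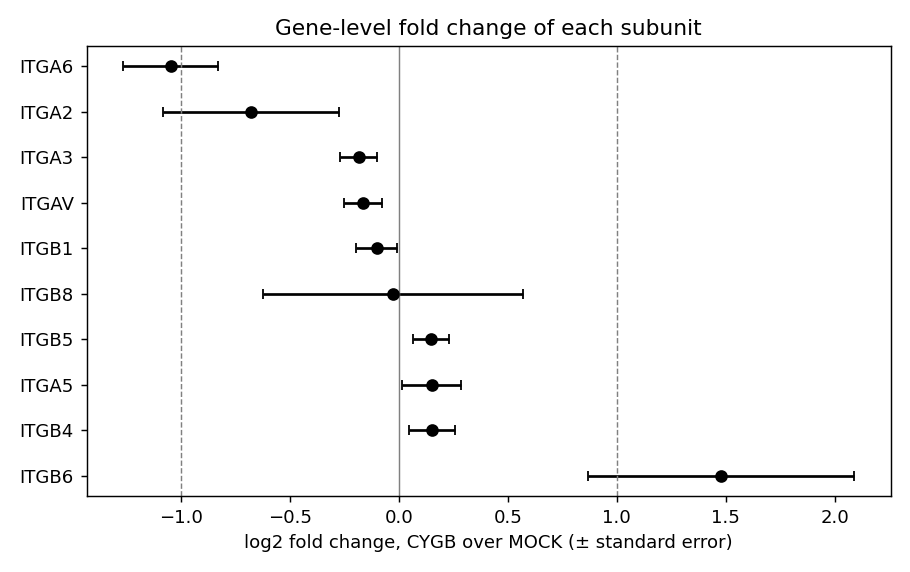
Gene-level log2 fold change of each subunit, CYGB over MOCK, with bars of 1 standard error and dashed lines at ratios of 2 and 0.5. Values run from -1.05 in ITGA6 to 1.48 in ITGB6, and the bars of ITGB6 and ITGB8 are the widest.

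Of the 102 transcripts of the 10 genes, 57 were tested and 0 passed the threshold of the methods by edgeR's quasi-likelihood test, where 1.02% of all transcripts tested did, and 0 reached an adjusted p under 0.05, against 0.0150%. DESeq2 also gave 0 past the threshold (2.26% of all) and 0 at an adjusted p under 0.05 (1.14% of all), with 3 at an unadjusted p under 0.05 (5.74% of all). In edgeR an unadjusted p under 0.05 was reached by 3, against 3.78% of all, namely ITGA6-201, ITGAV-201 and ITGA3-202 (log2 fold change -0.26). The groups did not overlap in 7, against 10.5% of all transcripts tested.

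The genes around the integrins were described by 5 lists, of which 86 of 98 genes were tested. Of 12 other integrin subunits tested, 26 adaptors and kinases of adhesion complexes, 9 hemidesmosome and tetraspanin partners and 14 regulators of integrin activity and traffic, 0 passed the threshold in edgeR or in DESeq2, where 0.565% and 1.32% of all genes did. An unadjusted p under 0.05 was found in 1, 3, 0 and 0 of them in edgeR (4.54% of all genes) and in 1, 2, 0 and 0 in DESeq2 (6.16%). Among those 4 lists, ITGAM, a leukocyte alpha chain, had 29, 26 and 31 counts in MOCK and 55, 48 and 59 in CYGB (log2 0.88), and was chosen for mention after its values were seen. Among 25 ligands tested, 1 passed it as lower and 1 as higher, where 0.285% and 0.280% of all genes did. The lists were chosen with earlier results of these data known, so these calls are not independent of the choice. LAMA5, the alpha chain of laminins that ITGA3 and ITGA6 bind, fell from 39.1 ± 5.55 to 11.1 ± 0.145 CPM (SD, n = 3 each), a log2 change of -1.81 (adjusted p = 0.0335 by edgeR's quasi-likelihood test), and 5 of the 6 fits with a library left out lost the adjusted p under 0.05. The log2 change was -3.92 over its protein coding transcripts and -3.93 by the most abundant transcript. LRRC32, which holds latent TGF-beta on the cell surface, was counted in the ligand list. It had 44, 19 and 37 counts in MOCK and 170, 182 and 172 in CYGB (log2 2.35, adjusted p = 0.423 by edgeR's quasi-likelihood test). Its log2 value was 3.26 over protein coding transcripts, and by the most abundant transcript (log2 2.76, standard error 1.19) it did not pass the threshold. The median log2 fold change over the lists was 0.08, beside -0.01 over all genes tested.

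In the adhesion complexes, the widest spread lay in PXN, PARVA and PTK2 and did not follow the groups. Other genes of that list had groups without overlap, 3 higher and 1 lower in CYGB of 26 tested, where 5.72% and 5.31% of all genes did. PXN, the scaffold paxillin, had 3416, 3624 and 12846 counts in MOCK and 13580, 13841 and 3440 in CYGB. PTK2, the focal adhesion kinase, had 1869, 6559 and 6279 counts in MOCK and 1972, 1321 and 5529 in CYGB. RAP1A, a small GTPase that activates integrins, had 55 counts in MOCK replicate 1 and 3513 to 4540 in the other libraries. PARVA, which binds actin and the integrin-linked kinase, had 24 to 67 counts in 5 libraries and 2452 in CYGB replicate 3. The other list genes chosen for the size of their change did not pass the threshold: their log2 values were 0.12 in ITGA7, 0.026 in ITGAE, 0.27 in PLEC, 0.21 in CD82, -0.18 in TSPAN4, -0.21 in NUMB, -0.26 in KRIT1, 0.26 in LAMB2 and -0.34 in NPNT.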

How the data were processed

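RNA of 3 MOCK and 3 CYGB libraries of HCT116 cells was sequenced. The authors deposited raw counts per transcript, not normalized. HISAT2, HISAT, DESeq2 and hg19 stand in the submitters' processing notes without a role, while all 102 transcripts described here have the positions of GENCODE 29 on GRCh38. The counting tool is not given in the sources used here. Transcripts without a gene (18.6 to 19.5% of counts) were left out, and the rest summed per gene.

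Genes (19987) and transcripts (66609) kept by filterByExpr (minimum count 10) were normalized by TMM and tested with the quasi-likelihood test of edgeR 4.0.16 in R 4.3.3, with Benjamini-Hochberg adjustment. DESeq2 1.42.0 was an alternative. TPM used GENCODE 29 lengths. Pairs of libraries differed by more than sampling noise (chi-square per gene at least 72.9). On simulated data with 200 features changed 8-fold, 89.5% of changed genes (19987 run) and 60.5% of changed transcripts (66609 run) passed the threshold. So did 137 unchanged genes and 514 unchanged transcripts. An adjusted p under 0.05 was reached by 77% of the changed genes and 0% of the changed transcripts. The changes of the subunit genes were smaller (log2 -1.05 to 1.48), so these rates do not tell how often changes of that size would be found.

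The members and lists were chosen with earlier results of these data known. Named were all members, their most abundant transcript, transcripts with at least 20% of a gene's counts, and in each list the genes past the threshold with the 3 largest changes at a mean of at least 10 CPM. Alternatives were DESeq2, its size factors, 2 other filters, a replicate block, gene-less transcripts included, protein coding or most abundant transcripts, and leaving out each library.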

Additional observations from a re-analysis of the deposited data

How the results depend on the processing

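The number of subunit genes past the threshold of the methods was 0 to 1 with a library left out: it was 0 without MOCK replicate 1, MOCK replicate 2 or CYGB replicate 3, and without CYGB replicate 2 the 1 gene was ITGA2 in place of ITGA6. DESeq2 gave 1 subunit gene with an adjusted p under 0.05. The transcripts past the threshold numbered 0 to 2 with a library left out, and 2 (ITGA6-201 and ITGAV-201) without MOCK replicate 3. The subunit genes whose groups do not overlap numbered 3 to 6, and groups made smaller by leaving out a library separate more easily. The shares of all genes and transcripts in these fits are not given here, so these counts are not read as a result about the subunits. In the lists, genes with an adjusted p under 0.05 numbered 2 with DESeq2, 0 with the replicate number as a block, 0 when gene-less transcripts were added and 0 to 1 with a library left out, while LAMA5 kept its adjusted p under 0.05 with DESeq2 and without MOCK replicate 2 and lost it with the block, with the gene-less transcripts and without each other library.

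With the replicate block, ITGA6 had a log2 fold change of -1.01, and the block left 1 subunit gene past the threshold. For each gene, the deviation of a library's log CPM from its group mean was taken. Between MOCK and CYGB libraries sharing a number, these deviations correlated at 0.0159, 0.0049 and 0.0253, so the numbers were not taken as pairs. ITGAV had 0.047 by its most abundant transcript. ITGB8 had 0.073 by its most abundant transcript, 0.076 by protein coding transcripts only and -0.40 to 0.34 with a library left out. With a library left out, ITGA6-202 ranged from -0.60 to 0.69, ITGAV-202 from -0.00142 to 0.14, ITGB5-202 from -0.34 to 0.061, ITGB8-201 from -0.47 to 0.69 and ITGB8-205 from -2.74 to 8.89. The cause of these changes was not tested.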

Other observations

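Transcripts without a gene have no position in the table. Of these 21225, 1 had counts of 1783, 67 and 858 in MOCK and 8593, 360 and 11245 in CYGB, high in the libraries where ITGA2 was low. Added to ITGA2, it left a coefficient of variation of 8.46% over the 6 libraries, against 39.2% for ITGA2 alone. It was found by a search made after the data were seen, for sums with a coefficient under 15%, which also returned 21 such transcripts for ITGA6, 22 for ITGB8 and 2 for ITGB6. Whether any of them holds reads of these genes was not tested.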
